A study of Mus musculus with 4 samples.

Results

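The levels of 8 genes of cholesterol synthesis were compared between mouse muscles with 1 or 2 floxed alleles of Nf1, whose product neurofibromin switches off the GTPase Ras: Hmgcs1, Idi1, Fdft1, Sqle, Lss and Cyp51, which encode enzymes of the pathway, and Srebf2 and Insig1, which control it. They were chosen by name, and all 8 were found among 32868 gene names. Although the group is called cholesterol synthesis and uptake, no member is an uptake gene, so uptake is described below from a separate list. RNA came from the tibialis anterior, a mostly fast-twitch muscle at the front of the shin, of C57BL/6 mice at postnatal day 21. The Het group (genotype Nf1flox/+/Myf5+) carried 1 floxed Nf1 allele and the Nf1-KO group (Nf1flox/flox/Myf5+) carried 2, with 2 libraries in each group. Both groups thus share the Myf5+ label, which in such crosses usually means a Cre driver active in muscle precursors, and no mouse without a floxed allele was included. With such a driver, cells outside that lineage keep Nf1 in either group. The labels do not say whether the libraries came from separate animals or from pools, so p-values measure only the spread between these libraries.

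Cholesterol is built from acetyl-CoA. HMG-CoA synthase acts before mevalonate, which is turned into isoprenoid units and joined to farnesyl diphosphate. Squalene synthase commits that intermediate to sterols, and squalene is then oxidised and closed into lanosterol, from which a series of enzymes makes cholesterol. Farnesyl and geranylgeranyl groups from the same route also anchor Ras-family proteins to membranes. When the endoplasmic reticulum is poor in sterols, the protein SCAP carries the SREBP-2 precursor (from Srebf2) to the Golgi, where proteases release a transcription factor that raises genes of cholesterol synthesis and uptake; INSIG proteins hold SCAP back when sterols are plentiful.

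Among the members measured in Nf1-KO muscle, only Fdft1 rose past the test, Insig1, Srebf2 and Cyp51 fell, and Idi1 and Sqle were not separated from Het. The members therefore did not move in 1 direction. Lss did not reach the filter of 0.5 RPKM and was not tested, and Hmgcs1 was listed at 0 in every library. Levels are RPKM, reads scaled to the length of the gene and the depth of the library, and fold changes are on the log2(RPKM + 1) scale after scaling between libraries, which understates the change of low genes. Percent changes are of RPKM means before the scaling between libraries, which here makes rises larger and falls smaller than after it. Differences were tested with limma, with p-values adjusted over 10690 genes and a threshold of 0.05.

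Promoter sequences are shown for the 3 members that fell, because they allow some known binding motifs of SREBP and its partner factors to be read beside the values. The RefSeq promoter table of build GRCm38.p6 holds 6 of the 8 members (Sqle and Fdft1 are the others). Each sequence runs 5′ to 3′ on the gene's strand from 250 bases before to 50 bases after the annotated start. Insig1 lies on the plus strand at chr5:28071162-28071461, Srebf2 on the plus strand at chr15:82147019-82147318 and Cyp51 on the minus strand at chr5:4104648-4104947. Capitals mark, on either strand, CCAAT (the NF-Y box), GGGCGG (the Sp1 or GC box) and TCACNCCA (a shortened sterol regulatory element).
Insig1: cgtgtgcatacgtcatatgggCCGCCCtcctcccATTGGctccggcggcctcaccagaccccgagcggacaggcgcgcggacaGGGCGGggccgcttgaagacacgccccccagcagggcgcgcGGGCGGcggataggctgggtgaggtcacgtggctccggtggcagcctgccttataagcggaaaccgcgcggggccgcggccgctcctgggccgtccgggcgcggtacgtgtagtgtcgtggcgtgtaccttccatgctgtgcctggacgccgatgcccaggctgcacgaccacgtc
Srebf2: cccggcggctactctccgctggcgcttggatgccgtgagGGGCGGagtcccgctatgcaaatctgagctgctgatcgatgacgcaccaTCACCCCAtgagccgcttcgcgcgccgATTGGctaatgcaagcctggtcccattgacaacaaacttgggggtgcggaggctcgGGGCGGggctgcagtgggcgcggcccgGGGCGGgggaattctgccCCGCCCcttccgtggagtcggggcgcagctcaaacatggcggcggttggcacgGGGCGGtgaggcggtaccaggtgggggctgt
Cyp51: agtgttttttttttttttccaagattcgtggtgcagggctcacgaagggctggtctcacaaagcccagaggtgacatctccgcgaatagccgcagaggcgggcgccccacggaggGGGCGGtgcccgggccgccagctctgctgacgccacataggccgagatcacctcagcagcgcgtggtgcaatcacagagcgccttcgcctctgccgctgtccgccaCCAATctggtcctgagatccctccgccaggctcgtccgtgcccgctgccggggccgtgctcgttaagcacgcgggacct

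Every one of the 6 member promoters held a CCAAT and a GGGCGG, against 37.4% and 35.7% of all 32851 promoters of the same length. The full sterol element TCACNCCAC was found in 1 member, Hmgcs1, with its first base at -137 from the start site, and in 1.24% of all promoters. The shorter TCACNCCA, chosen after the sequences had been seen, and which every full match also contains, occurred in Hmgcs1 and in Srebf2 (first base at -162) and in 4.36% of all promoters. An E-box, CANNTG, was present in 5 of the 6, the exception being Cyp51, and in 72.3% of all promoters. Members had a G and C content of 52.3% (Idi1) to 71.7% (Insig1) in this window, where the median of all promoters was 52.7%. These are descriptions of letters in 300 bases, and no promoter of a member that rose was among them. Only these strings were searched, so a promoter without a match may still hold a sterol element spelled in other letters. Idi1, which was not called, and Insig1, Srebf2 and Cyp51, which fell, all hold CCAAT and GGGCGG.

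**Figure D1:**
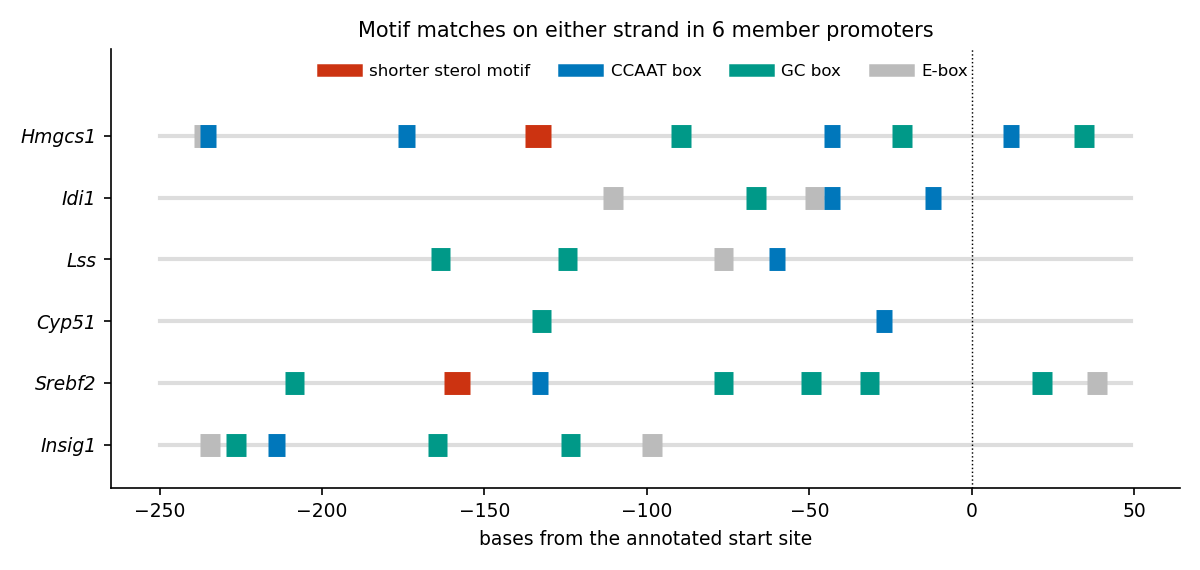
Motif matches (coloured blocks) along the promoters of 6 members, with bases from the annotated start site on the horizontal axis (0 is the start) and 1 row per gene. Each row carries at least 1 CCAAT and 1 GC box, and the shorter sterol motif appears in Hmgcs1 and Srebf2.

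The targeted gene was compared first. Nf1 was at 1.09 and 1.01 RPKM in Het and at 0.89 and 0.85 RPKM in Nf1-KO, so the groups did not overlap. The fall was close to the threshold (log2 fold change -0.18, standard error 0.057, limma adjusted p 0.0407). With a pseudocount of 0.1 it was -0.33 (limma adjusted p 0.0452), and the authors' deposited table gave -0.38 (adjusted p 0.00258). It lost its call in 7 of 11 alternatives, among them values without scaling (-0.13, limma adjusted p 0.0944) and each of the fits with 1 library left out (0.0566 to 0.179).

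Estimated sequencing depth was 36500000 and 58100000 reads in the Het libraries and 47000000 and 51000000 in the Nf1-KO libraries. Limma called 50.3% of the tested genes, 24.9% higher and 25.4% lower in Nf1-KO, so a call by itself does not set a gene apart in these data. Without scaling between libraries, 35.2% were higher and 17.6% lower. Skeletal muscle markers dominated every library, with summed levels of the 8 markers of 50665 and 50777 RPKM in Het and 39537 and 39267 RPKM in Nf1-KO. Of these markers 7 passed downward, with log2 fold changes from -0.17 (Ckm) to -1.35 (Actn3). The other, Des, passed upward (1008.41 and 1004.28 against 1219.42 and 1206.19 RPKM), so the muscle markers did not fall evenly. Summed markers of other cells were higher in Nf1-KO. Of 8 Schwann cell markers 7 passed upward (sum 18.1 and 18.7 against 38.8 and 37.3 RPKM). Only 4 of 8 macrophage and leukocyte markers were tested, and all 4 passed upward (sum of the 8, 11.3 and 11.1 against 31.5 and 31.6 RPKM, with Adgre1 listed at 0). The largest part of that sum is Lyz2 (7.47 and 7.38 against 24.35 and 24.62 RPKM). Also passing upward were 5 of 6 fibroblast markers (81.2 and 78.5 against 123.0 and 123.9 RPKM) and 3 of 7 adipocyte markers (178.9 and 185.8 against 269.4 and 267.4 RPKM). The sixth fibroblast marker, Thy1, fell (2.93 and 2.32 against 1.26 and 1.71 RPKM). The adipocyte sum is mostly Fabp4 (170.6 and 176.29 against 249.39 and 246.76 RPKM). The adipocyte marker Adipoq (mean 1.21 ± 0.14 against 1.00 ± 0.071 RPKM, SD, n = 2) was not called, and Plin1 (0.41 and 0.34 against 0.35 and 0.35 RPKM) and Lep (0.21 and 0.22 against 0.03 and 0.05 RPKM) were not tested; the authors' deposited table called Lep lower (adjusted p 0.00253). Among endothelial markers 3 rose and 2 fell of 6 (86.7 and 87.6 against 101.0 and 99.1 RPKM). Myelinating Schwann cells and macrophages are themselves active in cholesterol synthesis or handling; the part of these cells in the results below was not tested. In a whole-muscle library, fewer cells of a type and less RNA per cell cannot be told apart.

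Taking the enzymes in pathway order, Hmgcs1 (HMG-CoA synthase, the step before mevalonate; chromosome 13, 119690379 to 119708260 in GRCm38) has 2 rows, each at 0 in all 4 libraries. A listed 0 cannot be read as absence here, since 44.7% of all rows are at 0 throughout and Rce1, which processes prenylated proteins in most cells, is one of them. The gene also has no entry in the authors' deposited table, so nothing can be said about its difference between the groups.

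Idi1 (isopentenyl-diphosphate isomerase, which interconverts the isoprenoid units; chromosome 13, 8885501 to 8892451) was 2.34 and 2.49 RPKM in Het and 2.77 and 2.78 RPKM in Nf1-KO. Both Nf1-KO libraries lay above both Het libraries, but by little. After scaling, the log2 fold change was 0.08 with a 95% interval of -0.05 to 0.20 (limma adjusted p 0.266), so no difference was shown, while a rise within that interval would not have been seen.

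Fdft1 (squalene synthase, the first step that commits farnesyl diphosphate to sterols; chromosome 14, 63145150 to 63179578) was 22.89 and 22.52 RPKM in Het and 31.18 and 32.69 RPKM in Nf1-KO. Both Nf1-KO libraries stood well above both Het libraries, and the group mean was 40.7% higher before scaling between libraries. This difference passed the test (log2 fold change 0.38, standard error 0.032, limma adjusted p 1.87e-04), and the value in the authors' deposited table was 0.39 (adjusted p 2.18e-16). Of the 4227 exonic bases of Fdft1 in GENCODE M21, 774 (18.3%) also lie in exons of Ctsb, the gene of the lysosomal protease cathepsin B, on the opposite strand. Ctsb was 57.1 and 55.73 RPKM in Het and 76.83 and 74.54 RPKM in Nf1-KO (log2 fold change 0.32, standard error 0.026, limma adjusted p 1.64e-04). Ctsb thus moved in the same direction at a higher level. Whether the counting used strand is not given in the sources used here, and the part of Ctsb reads in the Fdft1 values was not tested.

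Sqle (squalene epoxidase, a rate-controlling oxidation of the pathway; chromosome 15, 59315077 to 59331192) was 0.56 and 0.67 RPKM in Het and 0.86 and 0.58 RPKM in Nf1-KO. The groups overlapped, with the Nf1-KO libraries at the highest and the second lowest of the values. The log2 fold change was 0.05 with a 95% interval of -0.17 to 0.27 (limma adjusted p 0.679), and it turned to -0.06 without the first Nf1-KO library and to -0.0042 without the first Het library. The authors' deposited table has a mean normalized count of 86.5 for Sqle, the lowest of the members it holds, against 4764 for Fdft1.

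Lss (lanosterol synthase, which closes squalene epoxide into the first sterol; chromosome 10, 76531588 to 76557138) was 0.39 and 0.36 RPKM in Het and 0.48 and 0.43 RPKM in Nf1-KO. The groups did not overlap, yet the gene stayed under the filter of 0.5 RPKM and was not tested. That filter is on the level per length: in the authors' deposited table Lss had a mean normalized count of 137, above the 86.5 of Sqle. Its log2 fold change there was 0.19 (adjusted p 0.624). Fitted with no filter, it was 0.05 (limma adjusted p 0.408).

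Cyp51 (lanosterol 14-alpha-demethylase, the first step after lanosterol; chromosome 5, 4081145 to 4104746) was 1.18 and 1.14 RPKM in Het and 0.97 and 1.00 RPKM in Nf1-KO. Both Nf1-KO libraries were below both Het libraries, and the mean fell by 15.1% before scaling. It was called by a narrow margin (log2 fold change -0.17, standard error 0.054, limma adjusted p 0.0407). The call was lost in 7 of 11 alternatives, including each fit with 1 library left out (adjusted p 0.0757 to 0.173) and values without scaling (0.104), and the authors' deposited table did not make it (log2 fold change -0.35, adjusted p 0.166). Exons of Cyp51 share 166 of 4415 bases with Akap9 on the opposite strand, and Akap9 itself was not called (log2 fold change -0.04, limma adjusted p 0.543).

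The 2 control genes were both lower. Srebf2 (the SREBP-2 precursor; chromosome 15, 82147181 to 82205379) was 2.81 and 2.51 RPKM in Het and 2.28 and 2.37 RPKM in Nf1-KO. Its groups did not overlap, though the lower Het library was close to the higher Nf1-KO library. The mean fell by 12.6% before scaling, and after it the log2 fold change was -0.20 (standard error 0.060, limma adjusted p 0.0314). In the authors' deposited table the value was -0.29 (adjusted p 0.0342). The call was lost without the first Het library (-0.15, limma adjusted p 0.124), without the first Nf1-KO library (-0.18, 0.12), without the second Nf1-KO library (-0.22, 0.0678) and without scaling (-0.14, 0.104).

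Insig1 (chromosome 5, 28071363 to 28078662) encodes a protein that retains SCAP in the endoplasmic reticulum when sterols are plentiful, and is itself a target of SREBP. Insig1 was 4.51 and 5.13 RPKM in Het and 3.69 and 3.67 RPKM in Nf1-KO. The Nf1-KO libraries were nearly equal and lay below both Het libraries, and the mean fell by 23.7% before scaling. The difference passed the test (log2 fold change -0.39, standard error 0.063, limma adjusted p 0.00299), as it did in the authors' deposited table (-0.50, adjusted p 4.31e-04). Insig1 and Fdft1 kept their direction and their call in all 12 alternatives that were run. No exon of Insig1, Srebf2 or Sqle overlaps another gene in the annotation.

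**Figure D2:**
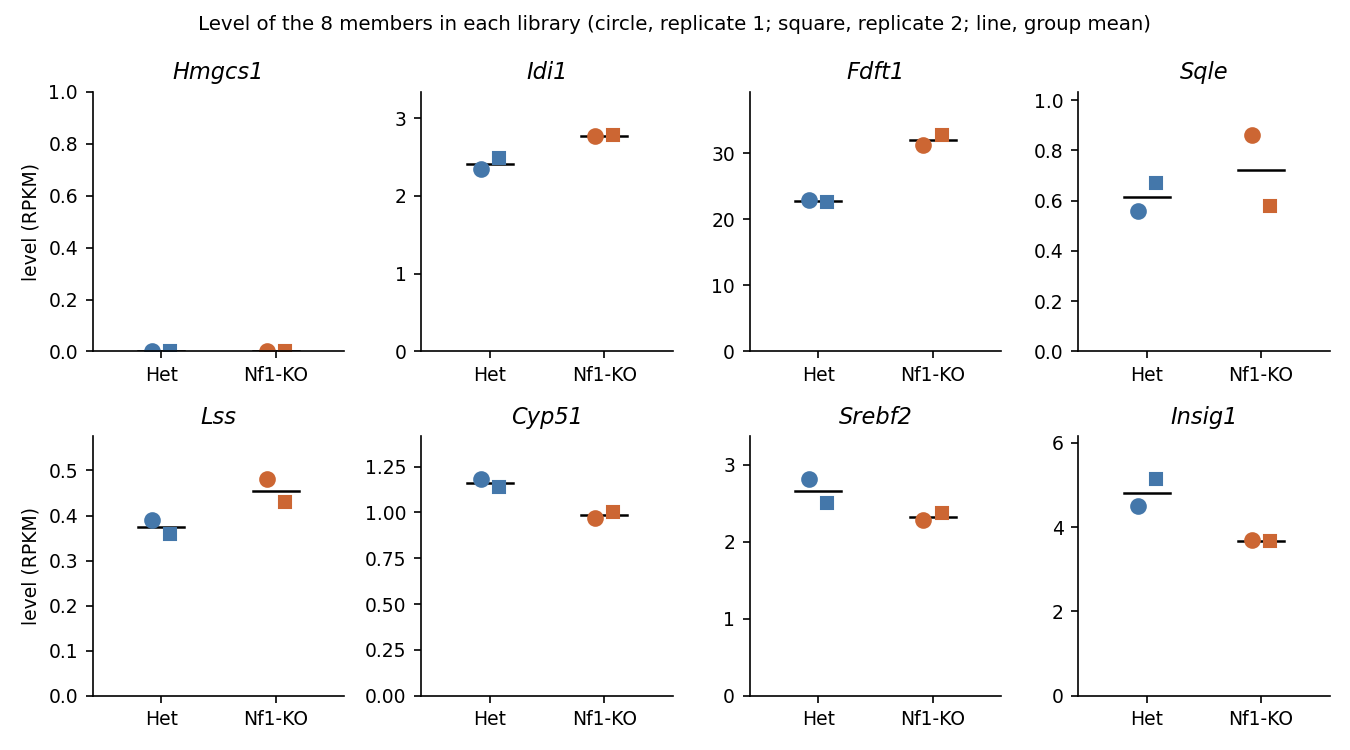
Level of each member (vertical axis, RPKM, starting at 0, with its own scale in each panel) in the 2 Het and 2 Nf1-KO libraries, with replicate 1 as a circle, replicate 2 as a square and the group mean as a line. Fdft1 is higher and Cyp51, Srebf2 and Insig1 are lower in both Nf1-KO libraries, the Sqle groups overlap, and Hmgcs1 is at 0.

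Of the 8 members, 6 were tested, each with at least 0.5 RPKM in all 4 libraries, so that none entered through 1 group alone. Limma called 1 higher (Fdft1) and 3 lower (Cyp51, Srebf2 and Insig1), which is 4 of 6 beside 50.3% of all tested genes. The count was 2 without the first Het library, without the first Nf1-KO library and without the second Nf1-KO library. Their median log2 fold change was -0.06, against 0.00 for all genes tested. Groups did not overlap in 5 of the 6 tested members (2 with Nf1-KO above and 3 below), beside 77.3% of the tested genes (49.8% above and 27.4% below). In the authors' deposited table, 7 members are listed, with 1 higher and 2 lower at an adjusted p under 0.05, beside 31.6% of its 13985 genes (15% higher and 16.6% lower). Without scaling, 1 member was higher (Fdft1) and 1 lower (Insig1), beside 35.2% and 17.6% of all tested genes.

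Per length, Fdft1 stood apart as the most abundant member in both groups. In Het it was followed by Insig1 (4.82 RPKM), Srebf2 (2.66), Idi1 (2.42), Cyp51 (1.16), Sqle (0.615) and Lss (0.375). Srebf2 and Idi1 were next to each other with libraries at 2.51 and 2.81 against 2.34 and 2.49 RPKM, and their means lay closer together than the 2 Srebf2 libraries. In Nf1-KO their order was the other way round, with Idi1 at 2.77 and 2.78 and Srebf2 at 2.28 and 2.37 RPKM, and Sqle (0.86 and 0.58 RPKM) lay between Cyp51 and Lss as in Het.

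**Figure D3:**
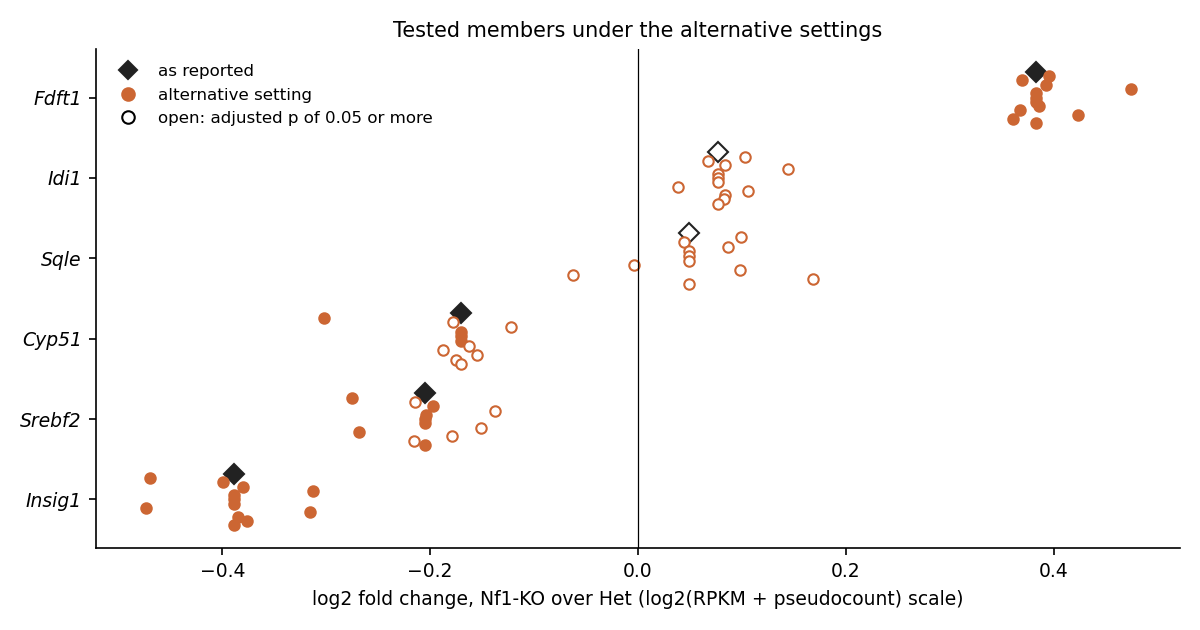
Log2 fold change of the 6 tested members (horizontal axis, log2(RPKM + pseudocount) scale) as reported (diamonds) and under each alternative setting (circles), filled where the limma adjusted p was under 0.05. Fdft1 and Insig1 stay filled throughout, Srebf2 and Cyp51 stay negative but open in several settings, and Sqle falls on either side of 0.

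The remaining enzymes of the route were taken from 2 lists, because the members cover only 6 of the 19 enzymes considered. Before squalene, 1 of 5 other mevalonate enzymes passed, beside 50.3% of all tested genes. Fdps, which makes the farnesyl diphosphate that Fdft1 uses, was 10.22 and 9.52 RPKM in Het and 7.28 and 7.60 RPKM in Nf1-KO (log2 fold change -0.45, standard error 0.047, limma adjusted p 4.57e-04). Without the first Nf1-KO library 2 of the 5 passed. Fdps and Fdft1, which are adjacent steps, were thus called in opposite directions.

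After lanosterol, 4 of 8 further enzymes fell and 1 rose, beside 25.4% and 24.9% of all tested genes. The list median was -0.07. Without scaling 2 rose and 2 fell, beside 35.2% and 17.6% of all tested genes. The 5 calls became 3 without the first Het library and without either Nf1-KO library. Hsd17b7, a keto-reductase of the demethylation steps, was 1.24 and 1.16 RPKM in Het and 0.66 and 0.59 RPKM in Nf1-KO. Its mean fell by 47.9% before scaling. Sc5d, the sterol desaturase of the late steps, was 7.05 and 7.26 against 4.45 and 4.82 RPKM. In both genes the Nf1-KO libraries were clearly below the Het libraries, with log2 fold changes of -0.48 and -0.61, and both were also lower in the authors' deposited table (adjusted p 7.35e-07 and 1.01e-09). Dhcr7, a sterol reductase of the last steps, was 1.94 and 1.67 against 1.47 and 1.57 RPKM, a smaller fall (log2 fold change -0.21, limma adjusted p 0.0398). Its call was lost without the first Het library (0.147), without the first Nf1-KO library (0.148), without the second Nf1-KO library (0.0678), without scaling (0.103), with no filter (0.117) and with the replicate block (0.0557), and the authors' deposited table did not make it (adjusted p 0.172). Ebp, a sterol isomerase, was 2.20 and 2.18 against 2.92 and 3.03 RPKM, a log2 fold change of 0.25 (limma adjusted p 0.00752), which the authors' deposited table did not call (adjusted p 0.196). Over the 19 enzymes of the route, members included, 17 were tested. Of these, 2 rose, 6 fell and 9 were not called, beside 24.9% higher and 25.4% lower among all tested genes. Among the genes named here and below, exons of Fdps, Srebf1, Scap, Mbtps2, Nr1h3, Ggps1, Pdss2, Fntb, Acss2 and Scd2 overlap those of another annotated gene, and reads of both genes may be mixed in their values.

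**Figure D4:**
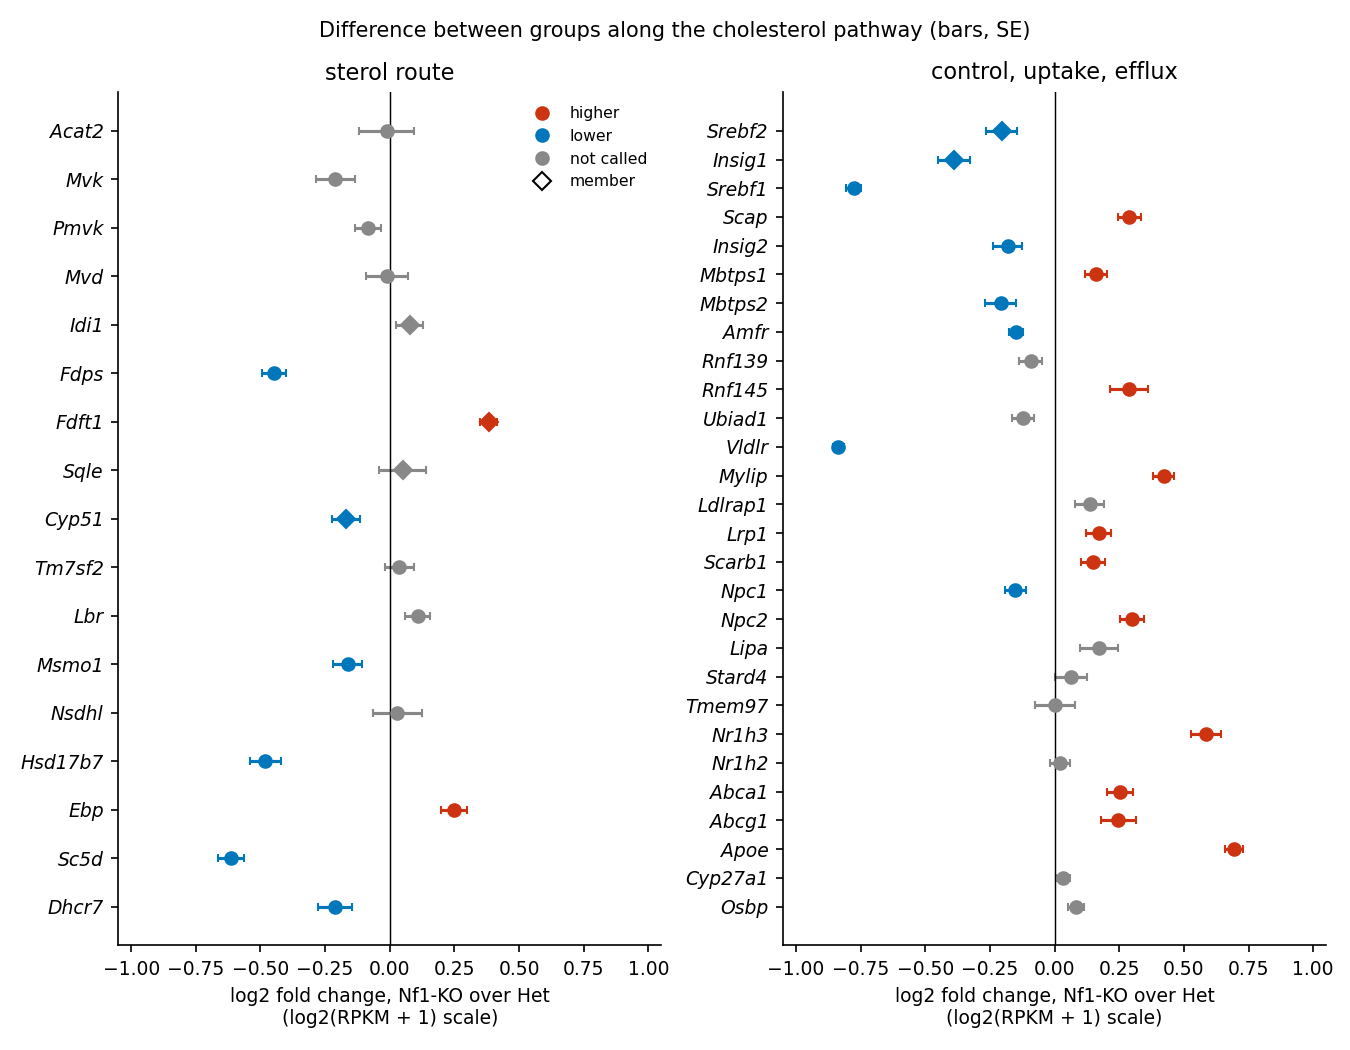
Log2 fold change of Nf1-KO over Het (horizontal axis, log2(RPKM + 1) scale; bars, standard error) for the tested enzymes in pathway order on the left and for tested genes of SREBP control, uptake and transport, and efflux and storage on the right, with members as diamonds and colours for the limma call. On the left Fdft1 and Ebp are on the positive side of the called genes, and Sc5d, Hsd17b7 and Fdps are the lowest.

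Genes that act with Srebf2 and Insig1 were split. Of 9, 3 rose and 4 fell, beside 24.9% and 25.4% of all tested genes. The list median log2 fold change was -0.12. Of all tested genes, 35.2% were higher and 17.6% lower when values were not scaled. Without scaling 3 rose and 1 fell, and the 7 calls became 4 without the first Het library and 3 without the first Nf1-KO library. Srebf1, which encodes SREBP-1 and mainly serves fatty acid synthesis, was 22.97 and 22.98 RPKM in Het and 13.96 and 13.8 RPKM in Nf1-KO (log2 fold change -0.78, standard error 0.029, limma adjusted p 6.80e-06). Scap, the SREBP escort, was 5.32 and 5.39 against 7.04 and 7.40 RPKM (log2 fold change 0.29). Rnf145, a ubiquitin ligase of the sterol response, was 1.00 and 0.91 against 1.61 and 1.34 RPKM (0.29), and Mbtps2, the site-2 protease that frees SREBP, was 2.32 and 2.19 against 1.84 and 2.05 RPKM (-0.21). Rnf145 (limma adjusted p 0.0175) lost its call without the first Nf1-KO library (0.0774) and without the second Het library (0.0687). Mbtps2 (0.0289) lost it without the first Nf1-KO library (0.164), without the first Het library (0.11) and without scaling (0.0893).

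In the list of uptake and intracellular transport, 10 of 11 genes were tested. Of these, 4 rose and 2 fell, beside 24.9% and 25.4% of all tested genes. The list median log2 fold change was 0.14. Without scaling 6 rose and 1 fell, beside 35.2% and 17.6% of all tested genes. Vldlr, a receptor of triglyceride-rich lipoproteins that is abundant in muscle, was 62.19 and 62.06 against 36.8 and 36.6 RPKM, a log2 fold change of -0.84. It was the most changed gene of the list, with its groups far apart. Mylip, the ubiquitin ligase that marks lipoprotein receptors for breakdown and a target of the sterol sensor LXR, was 7.47 and 7.17 against 11.04 and 10.6 RPKM (0.42). Npc2, which moves cholesterol out of lysosomes, was 6.07 and 6.04 against 7.91 and 8.48 RPKM (0.30). Lrp1, a large endocytic receptor that also takes up lipoprotein remnants, was 2.19 and 2.19 against 2.73 and 2.79 RPKM (0.17, limma adjusted p 0.0302). Its call was lost with any 1 library left out (adjusted p 0.0863 to 0.122) and with no filter (0.0653). The 6 calls of the list became 3 without either Het library or without the first Nf1-KO library.

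Efflux and storage genes that passed were all higher. Apoe, a lipoprotein component, was 16.78 and 16.29 RPKM in Het and 28.39 and 30.02 RPKM in Nf1-KO (log2 fold change 0.69, standard error 0.036, limma adjusted p 2.64e-05). Nr1h3, the gene of LXR-alpha, was 5.20 and 4.65 against 8.19 and 8.62 RPKM (0.59). The exporters Abca1 (2.29 and 2.38 against 3.14 and 3.20 RPKM) and Abcg1 (0.46 and 0.52 against 0.74 and 0.89 RPKM) had log2 fold changes of 0.25 each, and Abcg1 lost its call without the first Het library (limma adjusted p 0.0876) and without the second Nf1-KO library (0.115). Of the 12 genes, 7 were tested and 4 rose, beside 24.9% of all tested genes. The other 3 did not pass (median log2 fold change of the 7 tested, 0.25). The authors' deposited table called 4 higher and 1 lower of 10. That lower gene, Abcg4, was at 0.11 and 0.13 against 0.02 and 0.03 RPKM and was not tested here. Macrophages also express Apoe, Nr1h3, Abca1 and Abcg1, and the sum of their markers was higher in both Nf1-KO libraries, as given above; the part of macrophages in these values was not tested.

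**Figure D5:**
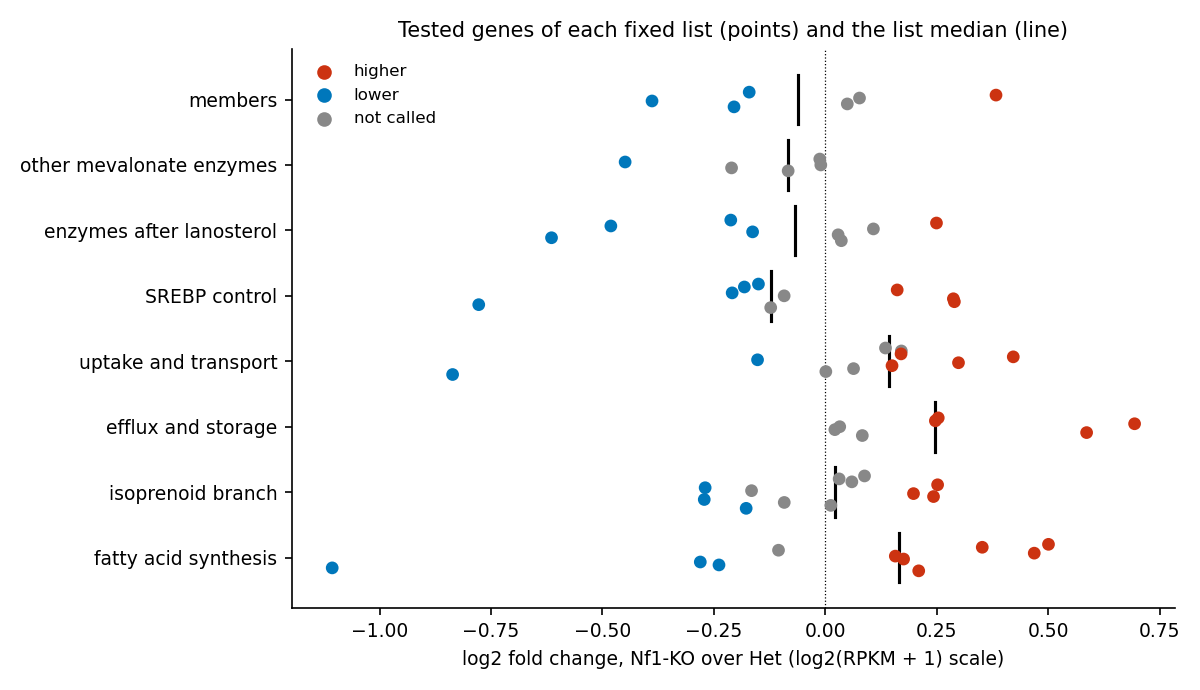
Log2 fold change of Nf1-KO over Het (horizontal axis, log2(RPKM + 1) scale) for each tested gene of the 8 lists (points, coloured by limma call) with the median of each list as a line. Members spread from -0.39 to 0.38 around a median of -0.06, and the medians of the lists run from -0.12 (SREBP control) to 0.25 (efflux and storage).

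The isoprenoid branch leaves the route before Fdft1 and includes the enzymes that prenylate Ras-family proteins. It had 3 genes higher and 3 lower among 12 tested of 13, beside 24.9% and 25.4% of all tested genes. Without scaling 6 genes of this list were higher and 0 lower, beside 35.2% and 17.6% of all tested genes. With no filter on low values 1 gene of the list was called, beside 4542 of the 18959 genes in that fit. Fntb, the beta subunit of farnesyltransferase, was 3.56 and 3.73 RPKM in Het and 4.61 and 5.06 RPKM in Nf1-KO (log2 fold change 0.25, limma adjusted p 0.0111). Pggt1b, the beta subunit of the geranylgeranyl transferase, was 3.39 and 3.12 against 2.51 and 2.90 RPKM (-0.27, 0.0182), and Ggps1, which makes geranylgeranyl diphosphate, was 2.86 and 3.44 against 2.61 and 2.60 RPKM (-0.27, 0.0264). Pdss2, a subunit of the enzyme for the ubiquinone side chain, was 7.79 and 8.44 against 10.09 and 10.79 RPKM (0.24, 0.00974). None of these 4 kept its limma call in every fit with a library left out: Fntb (adjusted p 0.0656) and Pdss2 (0.0575) lost it without the first Het library, Pggt1b without the first Het (0.0894) and the first Nf1-KO library (0.0828), and Ggps1 without the second Het (0.0811), the first Nf1-KO (0.0523) and the second Nf1-KO library (0.0548). The 6 calls of the list became 3 without the first Het library, 2 without the first Nf1-KO library and 1 with no filter on low values.

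Fatty acid synthesis genes, which depend mainly on SREBP-1, served as the nearest comparison. Of 13 genes 10 were tested, 6 rose and 3 fell, beside 24.9% and 25.4% of all tested genes. The list median log2 fold change was 0.17, beside -0.06 in the cholesterol members. Whether the lists differ was not tested. The 9 calls became 5 without the second Nf1-KO library. On the log2(RPKM + 1) scale the 4 largest changes were in Scd2, a fatty acid desaturase (7.49 and 7.64 against 3.08 and 3.32 RPKM, log2 fold change -1.11), the acetyl-CoA carboxylases Acaca (0.50) and Acacb (0.35), and the acetyl-CoA synthetase Acss2 (0.47). That scale ranks low genes down: fatty acid synthase, Fasn, which also fell (1.16 and 1.21 against 0.92 and 0.80 RPKM, -0.28, limma adjusted p 0.01), had a log2 fold change of -0.58 in the authors' deposited table, where Acacb had 0.35.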

How the data were processed

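Transcript levels were measured by RNA sequencing in 4 libraries of muscle RNA. The submitters' processing notes name STAR 2.4.2a, DESeq2 and the build mm9, without roles; the counting program, annotation and use of strand are not given in the sources used here. Per library the authors deposited 1 value per gene, read from the values as RPKM (rounded to 2 decimals; unit not named in the headers). Their comparison table holds, per the file headers, a mean signal of normalized counts, a log2 fold change with its standard error, a test score, and a p-value with its adjusted form, all computed by the authors with DESeq2.

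Of 34682 rows, 33 with a number for a name were left out, and the highest-mean copy was kept per name. Genes that reached 0.5 RPKM in 2 or more libraries were scaled by a trimmed mean of log ratios (30% of ratios, 5% of abundances trimmed at each end) and tested on log2(RPKM + 1) with limma 3.58.1 in R 4.3.3, with a variance trend and Benjamini-Hochberg adjustment. The fit was run on simulated data with the same noise in every gene and few changed genes. These settings differ from the real data, so the run does not measure how many calls here are wrong. With so few libraries an exact permutation test of 2 against 2 libraries cannot go below 0.333. Depth was estimated from the steps that single reads make in short genes, so it is approximate. Alternatives changed the pseudocount, filter, scaling, trend, copies, libraries and replicate block. Positions and exon overlaps are those of GENCODE M21 (GRCm38), found for all 123 genes of the lists and the targeted gene, and are not in the authors' build. Members and lists were chosen with earlier results of these data known. Genes named beyond the members are Nf1 and up to 4 per list with the largest change among those past the threshold; some genes of the lists are not reported here and are in no list count. Ctsb, Akap9, Rce1, Abcg4, Fasn and the single markers of muscle and of other cells were added after their values were seen.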

Additional observations from a re-analysis of the deposited data

How the results depend on the processing

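Over 12 alternative settings, 510 values were recomputed, of which 431 kept their direction and their side of the threshold or, for counts, stayed within 1.5 times; this bound is wide for all genes, where the count of calls ran from 4235 to 5643. Fdft1 (0.36 to 0.47) and Insig1 (-0.47 to -0.31) kept their calls in each of them, with adjusted p of at most 0.00584 and 0.0276, and Idi1 (0.04 to 0.14) was called in none. With no filter on low values, which adds genes to the fit, the log2 fold changes of Cyp51 (-0.18), Srebf2 (-0.21) and Nf1 (-0.19) no longer passed. The number called was 2 members, 4 SREBP control genes, 3 enzymes after lanosterol and 1 isoprenoid gene. Beside them, 4542 of all 18959 genes in that fit were called, a lower share than the 50.3% of the main fit. With values not scaled, Cyp51 (-0.12), Srebf2 (-0.14) and Nf1 (-0.13) did not pass either. In that fit 2 members and 4 SREBP control genes passed, beside 5643 of all 10690 genes. The cause was not tested. With the replicate number as a block, Cyp51 (-0.17, limma adjusted p 0.064) and Nf1 (-0.18, 0.0559) did not pass. No other member lost its call, and 3 enzymes after lanosterol were called, beside 5231 of all 10690 genes. Same-numbered libraries had a correlation of deviations of -0.018 across genes, so no pairing by number was seen. With 2 libraries in each group, this value cannot exclude a pairing. With 1 RPKM asked in every library, 2 other mevalonate enzymes and 3 enzymes after lanosterol were called, beside 4700 of the 8577 genes then tested.

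When each library was left out in turn, the lone library of a group being assumed to vary like the others, log2 fold changes ran from -0.063 to 0.17 for Sqle, -0.19 to -0.16 for Cyp51, -0.27 to -0.15 for Srebf2 and -0.21 to -0.15 for Nf1. Calls then numbered 2 to 3 among members, 1 to 2 among other mevalonate enzymes, 3 to 6 in SREBP control, 3 to 4 among enzymes after lanosterol, 3 to 5 in uptake, 2 to 5 in the isoprenoid branch and 5 to 7 in fatty acid synthesis. Sqle and Lss were under 1 RPKM in every library; the effect of depth on their differences was not measured.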

Other observations

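The 8 members have a nearly flat mean profile, since gains and losses cancel: the mean of their centred log2 values lay between -0.02 and 0.02 in the 4 libraries. Among 4776 other genes with a mean of at least 5 RPKM, those with the smallest Euclidean distance to that profile over the 4 libraries were Psmd1 (distance 0.0054), Ubqln1 (0.0069), Myo18a, Mllt3 and Cap2 (each 0.011). Psmd1, a proteasome subunit, was 44.54 and 45.01 RPKM in Het and 47.35 and 46.87 RPKM in Nf1-KO. These levels are before scaling between libraries (factors 0.967 to 1.034), while the distances are after it. The profile includes Hmgcs1, at 0, and Lss, which was not tested. Nearness to so flat a profile means only that a gene changed little between the libraries.

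The only member that rose, Fdft1, is also the one that shares the largest part of its exons with a listed gene on the opposite strand (18.3%, with Ctsb), beside 3.76% for Cyp51 with Akap9 and 3.53% for Lss. Hmgcs1 (12.1%) and Idi1 (9.22%) share exons with opposite-strand genes that have no listed values. Outside the members, Fdps, which fell, shares 26.7% with a same-strand gene without listed values. The part of these overlaps in the differences was not tested.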
